A study of Mus musculus with 12 samples.

Results

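Oxidative phosphorylation is the set of 5 protein complexes in the inner mitochondrial membrane by which cells turn the electrons of NADH and succinate into ATP. Complexes I (NADH dehydrogenase) and II (succinate dehydrogenase) feed electrons in, complex III (the cytochrome bc1 complex) passes them to cytochrome c, and complex IV (cytochrome c oxidase) hands them to oxygen. Complexes I, III and IV pump protons, and complex V (ATP synthase) lets the protons flow back and makes ATP. Most subunits are encoded in the nucleus and have to be imported, and the rest are encoded by mitochondrial DNA. The nuclear-encoded subunits were taken from the expression table by gene symbol. Taken were names that begin with Nduf followed by a, b, c, s, v or ab and a number, and Sdha to Sdhd. Names that begin with Uqcr, Cox4 to Cox8 or Atp5, and Cyc1, were also taken, and names containing -ps were left out. This gave 91 of 55401 rows: 41 of complex I, 4 of complex II, 9 of complex III, 19 of complex IV and 18 of complex V, each put in a complex by its symbol. The rule goes by symbol alone, and 4 of the 91 rows (Ndufb4c, Ndufs6b, Ndufa11b and Cox6c2) are annotated in GENCODE M21 as processed pseudogenes. Of these, Ndufb4c (mean 215 TPM) and Cox6c2 are among the rows tested below and are counted with the subunits, and reads may be shared between each of the 4 and its parent gene, so their values are uncertain. Ndufa4 and its relative Ndufa4l2 were counted under complex I by name, although NDUFA4 protein is now placed in complex IV. The symbol Atp5o had 2 rows, and the second (ENSMUSG00000116933) held only 1.54 TPM on average against 397 TPM for the first (ENSMUSG00000022956). The rule left out 14 names containing -ps, of which Ndufb1-ps (340.5 TPM) and Ndufa12-ps (122 TPM) had the highest means over the libraries.

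The samples were bulk tumors of 4T1, a mouse mammary carcinoma line, grown orthotopically in Balb/c mice that were 6 to 8 weeks old at purchase per the study's methods. Mice received 1 of 4 proteins: a control IgG, IL-10-Fc (interleukin-10, a cytokine, fused to an antibody Fc part), anti-CSF1R (an antibody to the receptor through which macrophages receive the survival factor CSF1), or BF10, an anti-CSF1R antibody with human interleukin-10 fused to its heavy chain. Treatment began at a tumor volume of 100 mm3, and the number of doses is given as 6 in the treatment label and 4 in the design text, so it is uncertain. Each group had 3 RNA-seq libraries, named here by the number in their titles (control IgG 4, 5 and 7; IL-10-Fc 2, 4 and 7; anti-CSF1R 4, 6 and 8; BF10 3, 6 and 7). Nothing in the labels says whether the tumors of a group came from separate experiments, so p-values measure the spread between these samples. Levels are in TPM, the deposited FPKM (fragments per kilobase of transcript, scaled to sequencing depth) rescaled to the same sum in every library. They are therefore per length, although the proportion between genes depended on the library, as given below. In bulk tumor RNA, fewer cells of a type and less RNA per cell cannot be told apart.

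The 12 libraries fell into sets that cut across the groups, and this has to be known before any subunit value is read. In 5 libraries (control IgG 4 and 7, IL-10-Fc 7, anti-CSF1R 8 and BF10 6) the deposited FPKM values summed to 782919 to 921581, and in the other 7 to 609695 to 648413; these are called the higher-sum and lower-sum libraries. Without the 91 subunit rows the sums split the same libraries, at 763335 to 898612 against 598408 to 635167. The control group held 2 higher-sum libraries and each other group 1, and what made the sets was not tested. Summed over the 91 rows, the subunits took 2.47 to 2.54% of all TPM in the higher-sum and 1.85 to 2.04% in the lower-sum libraries, with no overlap.

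Subunit promoters are shown here because these genes are commonly described as regulated together: nuclear respiratory factor 1 (NRF1), ETS factors such as GABP (also called NRF2) and YY1 are textbook regulators of many of them. Of the 91 rows, 68 matched the RefSeq promoter table by gene ID or symbol (GRCm38.p6, 250 bases before to 50 bases after each start), and both strands were searched for GCGCA, any base and GCGC in a row (NRF1), CCGGAAG (ETS) and AAGATGGC (YY1). At least 1 of the 3 was in 37 of the 68 promoters (54.4%), against 16.4% of the 27025 genes in the table. Those genes were not matched to the subunits for expression or for the base composition of their promoters. The NRF1 letters were in 16 of 68 (23.5%, against 5.19% of all genes), the ETS letters in 17 (25.0% against 9.93%) and the YY1 letters in 10 (14.7% against 3.19%). By complex, the YY1 letters were in 7 of 33 promoters of complex I, 3 of 14 of complex V and in none of the 21 of complexes II, III and IV, whereas ETS letters were in 2 of 3, 2 of 5, 3 of 13, 4 of 33 and 6 of 14 promoters of complexes II, III, IV, I and V. A match is a description of these letters and not a bound site. The 120 bases before the start are printed for the subunit of each complex with the highest mean TPM that had an entry, 5′ to 3′, with motif letters in capitals; no 2 matches overlapped in these windows. None of the 3 motifs lay whole in the printed bases of Ndufa4 (chr6:11907451-11907570, minus strand), Cox8a (chr19:7217617-7217736, minus strand) and Atp5b (chr10:128083187-128083306, plus strand), although the searched window of Cox8a held ETS letters that run across its start and others after it, and it is 1 of the 17 counted above. Sdhd (chr9:50603850-50603969, minus strand) held NRF1 and ETS letters, the latter read on the opposite strand. Uqcrh (chr4:116075071-116075190, minus strand) held ETS letters close to its start, also on the opposite strand.
Ndufa4: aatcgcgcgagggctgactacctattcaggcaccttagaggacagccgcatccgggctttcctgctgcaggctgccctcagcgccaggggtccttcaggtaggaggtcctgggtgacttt
Sdhd: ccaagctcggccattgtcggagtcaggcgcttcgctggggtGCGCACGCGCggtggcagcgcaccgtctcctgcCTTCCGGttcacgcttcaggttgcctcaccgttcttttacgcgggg
Uqcrh: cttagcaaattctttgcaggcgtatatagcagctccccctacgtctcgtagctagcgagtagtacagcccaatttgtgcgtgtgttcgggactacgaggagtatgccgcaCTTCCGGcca
Cox8a: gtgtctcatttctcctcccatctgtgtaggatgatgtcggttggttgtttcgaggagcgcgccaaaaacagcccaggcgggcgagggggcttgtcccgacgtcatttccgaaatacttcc
Atp5b: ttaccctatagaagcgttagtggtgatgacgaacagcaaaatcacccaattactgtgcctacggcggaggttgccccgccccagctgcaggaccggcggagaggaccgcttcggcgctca

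The subunit RNAs were abundant in all tumors, and their sums differed more between the library sets than between the groups. The 91 rows summed to 18512 to 25421 TPM per library. Complex V had the largest sum, with a mean of 7814 ± 965 TPM (SD, n = 3) in control IgG, 7392 ± 1008 in IL-10-Fc, 7078 ± 1298 in anti-CSF1R and 7271 ± 1183 in BF10. Complex I summed to 6543 ± 834 TPM in control IgG, 6090 ± 946 in IL-10-Fc, 5850 ± 1148 in anti-CSF1R and 5988 ± 1031 in BF10, and for every complex except II the control mean was the highest. In each of complexes I, III, IV and V, all 5 higher-sum libraries lay above all 7 lower-sum libraries, by 1.32, 1.43, 1.26 and 1.29 times in the means. Complex II was the exception: its sum was 437, 608 and 432 TPM in control IgG, 628, 601 and 576 in IL-10-Fc, 572, 582 and 395 in anti-CSF1R and 627, 550.5 and 621 in BF10. The ratio of set means for complex II was 0.79, and the ranges (394.8 to 576 TPM in higher-sum, 572 to 628 TPM in lower-sum libraries) overlapped.

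**Figure D1:**
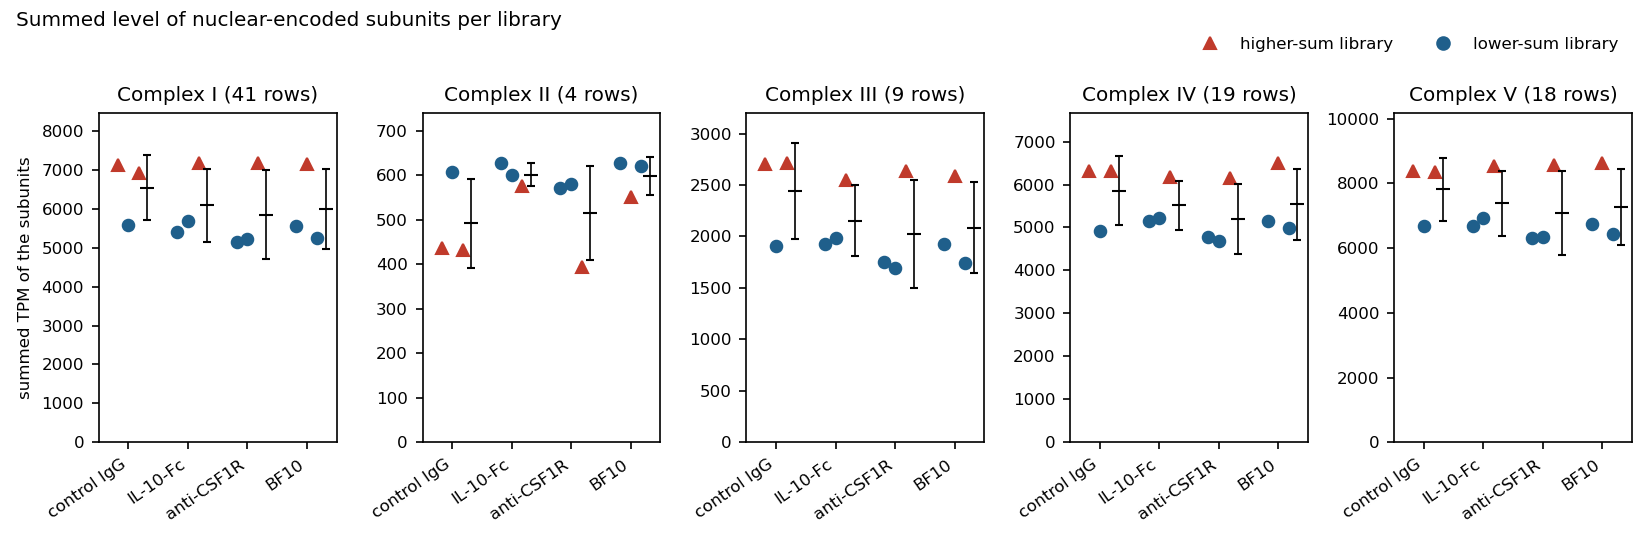
Summed TPM of the subunits of each complex in each library, by group; red triangles are higher-sum libraries, blue circles lower-sum libraries, and the black bar and whiskers are the group mean and SD (n = 3), with every axis starting at 0. For complexes I, III, IV and V each group has its triangles above its circles, and for complex II below them.

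Within the lower-sum libraries the subunits had a lower median variation than all tested genes. Their coefficient of variation (SD over mean) had a median of 7.61% over the 86 subunits that reached at least 1 TPM in at least 3 libraries (those tested), against 16.3% for all 15504 tested genes. It was 12.5% within the higher-sum libraries (all genes 27.9%) and 25.3% over all 12 (all genes 42.5%). The genes were not matched to the subunits for level. The 5 rows not tested were low: the pseudogenes Ndufs6b and Ndufa11b reached at most 1.44 and 0.43 TPM, Cox6a2 1.15 TPM, and Cox7b2 and Cox8c, which are known from testis, were listed at 0 in all 12 libraries.

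The difference between the sets did not go one way across subunits. As a description, with no test since the sets came from the libraries themselves, 40 of 86 subunits were higher in every higher-sum than in every lower-sum library, 14 were lower in every one, and 32 overlapped; among all tested genes 6.23% stood apart higher and 48.8% lower. The median difference was 0.28 on the log2 scale for subunits and -0.70 for all tested genes. Uqcrh, the hinge subunit of complex III, had the highest mean of its complex, at 795, 378 and 837 TPM in control IgG, 325, 357 and 579 in IL-10-Fc, 311, 293 and 815 in anti-CSF1R and 326, 601 and 306 in BF10. Cox7a2, a small subunit of complex IV, was at 899.6, 409 and 894 TPM in control IgG, 428, 446 and 714 in IL-10-Fc, 364, 333 and 961 in anti-CSF1R and 400.4, 818 and 397 in BF10. The differences in log2 level were 1.13 for Uqcrh, 1.11 for Cox7a2 and 1.12 for Ndufa4, and none of the 3 overlapped between the sets.

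Other subunits of the same complexes went the opposite way. Sdha, the flavoprotein subunit of complex II that oxidizes succinate, was at 32.5, 97.5 and 36.6 TPM in control IgG, 101, 85 and 48.8 in IL-10-Fc, 108, 114 and 24.9 in anti-CSF1R and 117, 38.3 and 110.1 in BF10. All 5 higher-sum libraries lay below all 7 lower-sum libraries, by 1.53 log2 units in the means. Uqcrc1, a core protein of complex III, was at 64.8, 204 and 92.5 TPM in control IgG, 227, 227 and 112 in IL-10-Fc, 201, 201 and 49.1 in anti-CSF1R and 219, 118 and 219 in BF10, a difference of -1.36. In complex IV, Cox4i1, the main isoform of subunit 4, differed by -0.85, and in complex V Atp5b, the catalytic beta subunit, differed by -0.61. The proportion between subunits of a complex therefore depended on the library: in control IgG 4 Uqcrh was at 795 and Uqcrc1 at 64.8 TPM, and in control IgG 5, of the same group, they were at 378 and 204 TPM.

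**Figure D2:**
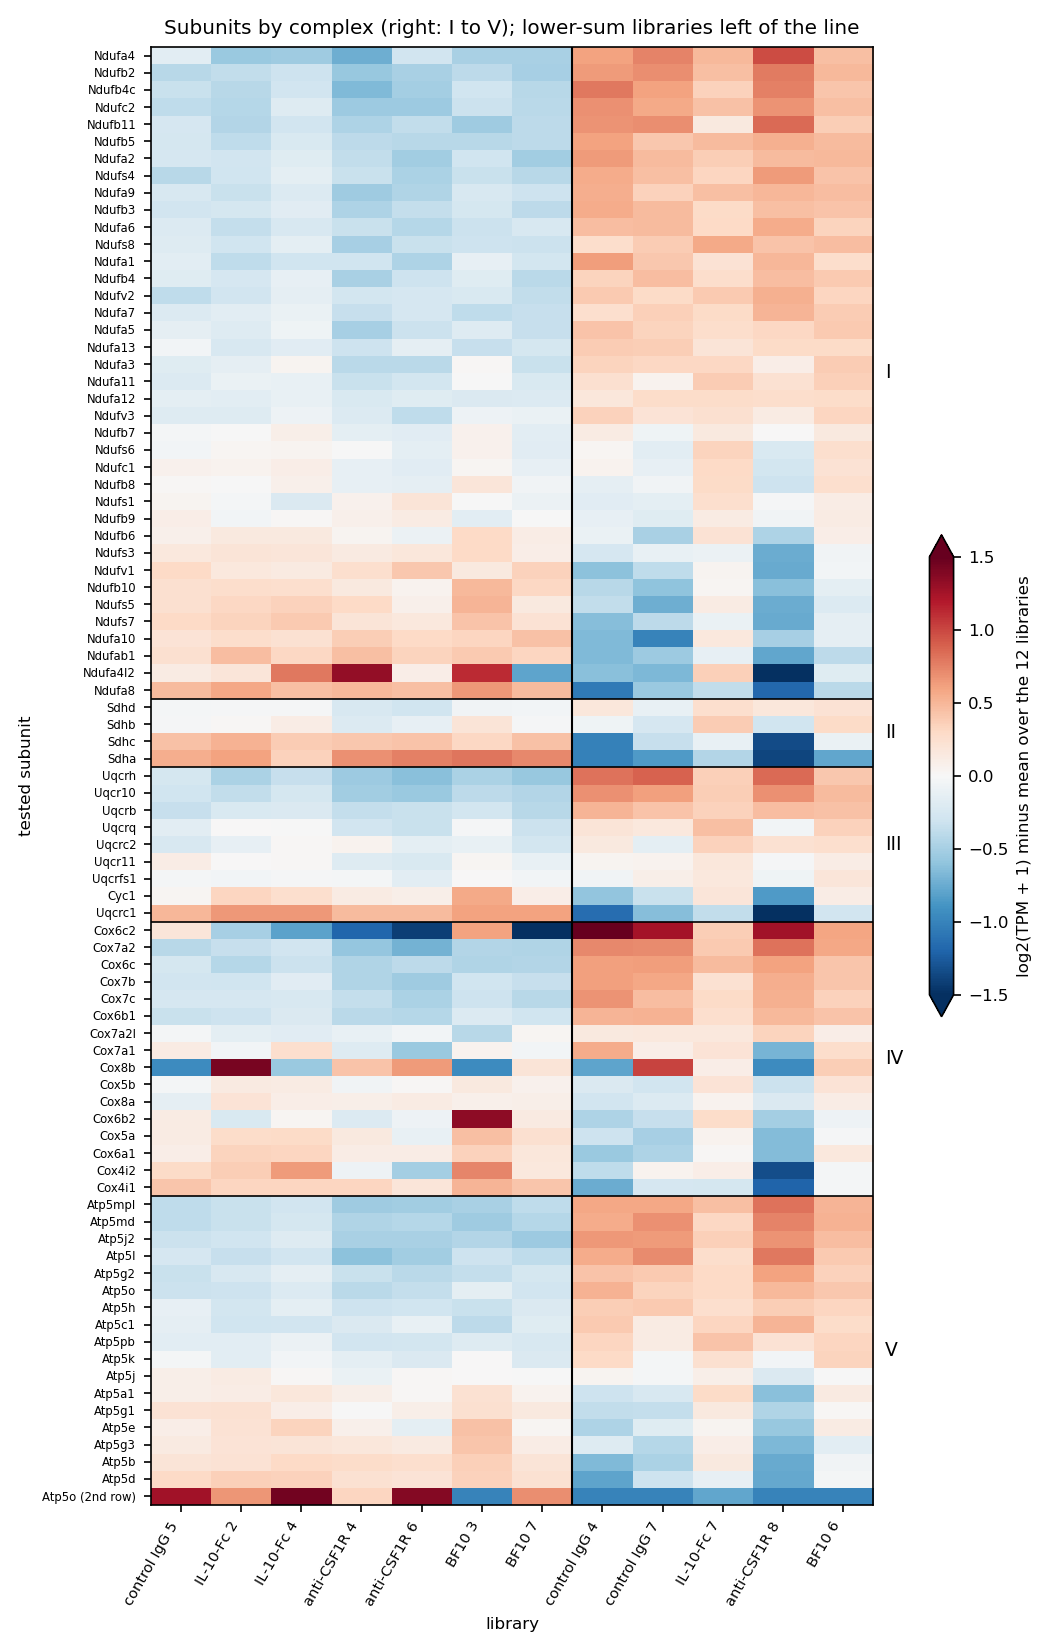
Level of 85 of the 86 tested subunits (vertical, by complex I to V) in each of the 12 libraries (horizontal), as log2(TPM + 1) minus the subunit's mean over the libraries; colors end at 1.5 either way. The 7 lower-sum libraries stand left of the black line, and most rows change color at that line, 40 of them with no overlap upward and 14 with no overlap downward.

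The set difference went with the length and base composition of the transcripts. The 40 subunits higher in the higher-sum libraries had a median annotated transcript length of 615.5 nt and a median GC content of 50.02%, the 14 lower ones 1287 nt and 54.1%, and the 32 that overlapped 674.5 nt and 52.9%. Across the 86 subunits, which share the same 12 libraries, Spearman's rho of the difference was -0.38 with length and -0.43 with GC content, and across 15486 tested genes with an annotated transcript it was -0.38 and -0.37. Split into 4 bins of rising GC content, the subunits had median differences of 0.75, 0.38, 0.14 and -0.29 log2 units. The subunits were short as a group (median 731 nt, against 2282 nt for all tested genes). Of the cell type marker lists, the epithelial and endothelial ones also separated the sets. The 5 epithelial markers summed to 668 to 1441 TPM in the higher-sum and 1610 to 2316 TPM in the lower-sum libraries, and the 4 endothelial markers to 9.91 to 40.6 and 52.1 to 115 TPM. The macrophage, T cell, fibroblast, pericyte, skeletal muscle, adipocyte, neutrophil and testis sums overlapped between the sets. Of all tested genes, 48.8% stood apart lower in the higher-sum libraries. Whether length, base composition or cell content has a part in the set difference was not tested.

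**Figure D3:**
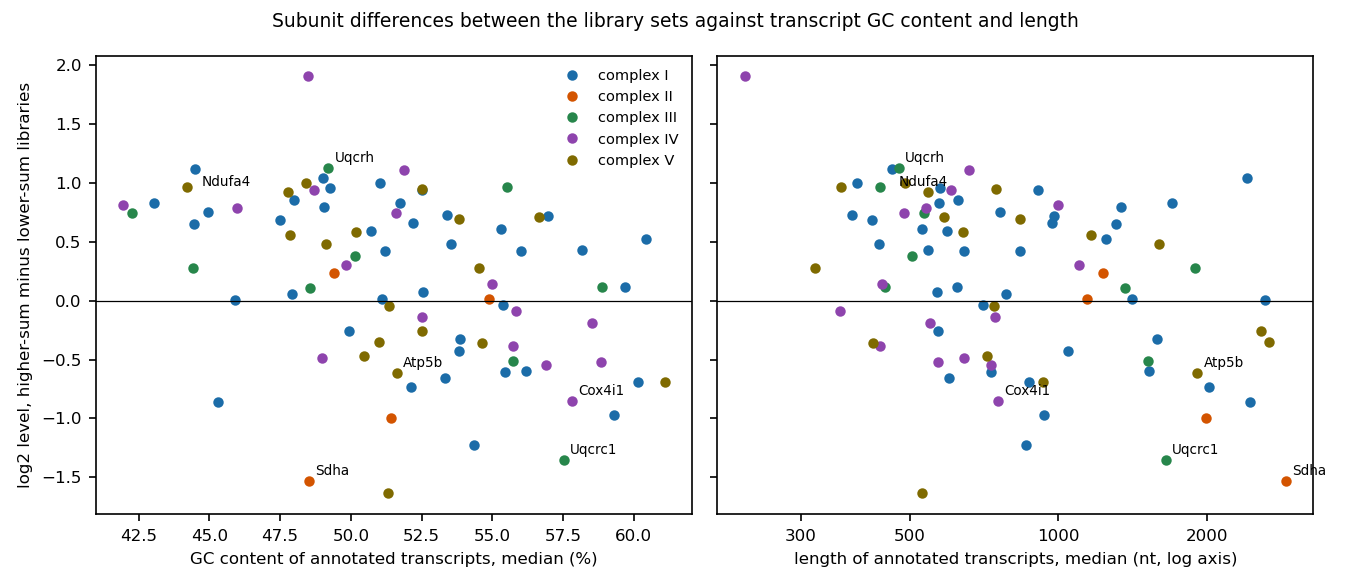
Difference in log2 level between higher-sum and lower-sum libraries for each tested subunit (vertical) against the median GC content (left) and the median length on a log axis (right) of its annotated transcripts, colored by complex. Uqcrh and Ndufa4 stand near the top and Sdha and Uqcrc1 near the bottom, and the points fall from left to right in both panels, with rho of -0.43 and -0.38 over 86 subunits.

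Whether the treatments changed these RNAs was asked with limma on log2(TPM + 1), fitted across the 15504 tested genes and all 12 libraries, with a gene called at a Benjamini-Hochberg adjusted p below 0.05 and at least a 1.5-fold change. No subunit was called in any of the 6 pairwise comparisons. Among all tested genes the share called was 0% for BF10 against control IgG (0 genes), 0.00645% for IL-10-Fc (1 gene), 0.568% for anti-CSF1R (88 genes), 0% for BF10 against IL-10-Fc, 0.735% for BF10 against anti-CSF1R (114 genes) and 0.542% for IL-10-Fc against anti-CSF1R (84 genes). With sample weights estimated by limma, which set the minority library of each group's sets low, 50, 46, 51, 0, 0 and 1 subunits were called, where 57.8, 59.8, 63.8, 0.239, 3.0 and 12.7% of all genes were. At an unadjusted p below 0.05 in the unweighted fit, in the same order, 0, 0, 1, 0, 2 and 2 of the 86 subunits passed, where 1.51, 1.44, 3.46, 0.271, 4.26 and 3.56% of all tested genes did.

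Against control IgG, the 86 subunits had a median log2 change of -0.06 in BF10 (40 higher, 46 lower), 0.01 in IL-10-Fc (43 and 43) and -0.15 in anti-CSF1R (25 and 61). The medians of all tested genes were 0.32, 0.35 and 0.24, and control IgG held 1 more higher-sum library than each other group. Scaled by the median of ratios, which moved the all-gene medians to 0.02, 0.00 and 0.03, the subunit medians were -0.42, -0.43 and -0.39. The gap between the subunit and all-gene medians was -0.34 to -0.44 log2 units under these scalings. Its size changed with single libraries and with the filter. The gap stayed negative whichever library was left out, but control IgG then still had the larger share of higher-sum libraries. For BF10 and IL-10-Fc the gap turned positive in other settings, given below. For BF10, IL-10-Fc and anti-CSF1R in that order, it was -0.18, -0.16 and -0.22 without control IgG 4, -0.24, -0.21 and -0.26 without control IgG 7, and -0.73, -0.67 and -0.73 without control IgG 5. In BF10 it was -0.24 without BF10 3, -0.21 without BF10 7 and -0.68 without BF10 6. In IL-10-Fc it was -0.21 without IL-10-Fc 2 and -0.59 without IL-10-Fc 7. In anti-CSF1R it was -0.21 without anti-CSF1R 4, -0.19 without anti-CSF1R 6 and -0.83 without anti-CSF1R 8. With no filter on low values the gaps were -0.09, -0.0056 and -0.16, beside all-gene medians of 0.04, 0.04 and 0.03. With the library set as a term the gaps were -0.02, -0.03 and -0.09. With the FPKM sum of all other genes as a covariate they were 0.06, 0.10 and -0.02, and in the lower-sum libraries alone 0.03, 0.11 and -0.14. By complex, with group means only, the medians in BF10 were -0.13, 0.40, -0.06, -0.03 and -0.15 for complexes I to V, and in IL-10-Fc -0.10, 0.42, 0.03, 0.07 and -0.05. Complex II thus had the highest median of the 5 in both, although with the median of ratios its own median was 0.02 in BF10 and -0.01 in IL-10-Fc, and it is also the complex whose sum was lower in the higher-sum libraries. Among the catalytic and electron-carrying subunits, Atp5b was at 551, 997 and 627 TPM in control IgG, 1015, 1070 and 963 in IL-10-Fc, 1056, 1039 and 514 in anti-CSF1R and 1113, 842 and 993 in BF10. Its log2 change in BF10 was 0.48 (SE 0.31, 95% interval -0.20 to 1.16), and the lower-sum control library (997 TPM) lay between the lower-sum BF10 libraries (1113 and 993). Cyc1, the cytochrome c1 of complex III, was at 53, 82.3 and 63.5 TPM in control IgG, 101, 96 and 91.2 in IL-10-Fc, 87.6, 85.5 and 44.2 in anti-CSF1R and 119.96, 86.9 and 86 in BF10. All BF10 and all IL-10-Fc libraries lay above all control libraries, and the change in BF10 was 0.56 (95% interval -0.08 to 1.20, adjusted p = 0.788). Sdhb, the iron-sulfur subunit of complex II, was at 127, 131 and 111 TPM in control IgG, 133, 143 and 173 in IL-10-Fc, 114, 121 and 107 in anti-CSF1R and 151, 161 and 131 in BF10. Its groups did not overlap either between BF10 and control IgG, with a change of 0.26 (95% interval -0.14 to 0.66, adjusted p = 0.788), which was -0.11 under median-of-ratios scaling.

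In all, 6 of 86 subunits (6.98%) were higher in all BF10 than in all control libraries, Cyc1, Sdhb and Cox6a1 among them, where 2.36% of all tested genes were, and 0 were lower (1.17% of all genes). In IL-10-Fc it was 7 of 86 (8.14%, against 4.75%), and 0 were lower (1.78%). Both comparisons share the control libraries. In anti-CSF1R 0 were higher (1.61% of all genes) and 4 lower (4.65%, against 3.68%), namely Cox7a1, Ndufc1, Uqcr11 and Atp5k, named here after their values were seen. These counts rested on the scaling: with libraries scaled by the median of ratios, an alternative chosen after seeing the data, they were 1 higher for BF10, 0 for IL-10-Fc and 1 lower for anti-CSF1R. The subunit with the smallest p in BF10 upward was Cox6a1, a complex IV subunit, at 238, 376 and 256 TPM in control IgG, 445, 441 and 355 in IL-10-Fc, 382, 380.1 and 224 in anti-CSF1R and 448, 392 and 397 in BF10, with a change of 0.53 (95% interval -0.03 to 1.10, adjusted p = 0.788). In IL-10-Fc it was Ndufa10, an accessory subunit of complex I, with 0.70 (adjusted p = 0.738), and in anti-CSF1R Ndufa10 upward (0.54). Ndufa10 was at 76.6, 140.4 and 60.3 TPM in control IgG, where the middle value is the lower-sum library, and within the lower-sum libraries all groups lay between 140.4 and 165 TPM. The smallest p downward in BF10 and in IL-10-Fc was that of Cox6c2, the processed pseudogene whose reads may be shared with Cox6c, at 0.0 to 22.4 TPM. Its values are uncertain.

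**Figure D4:**
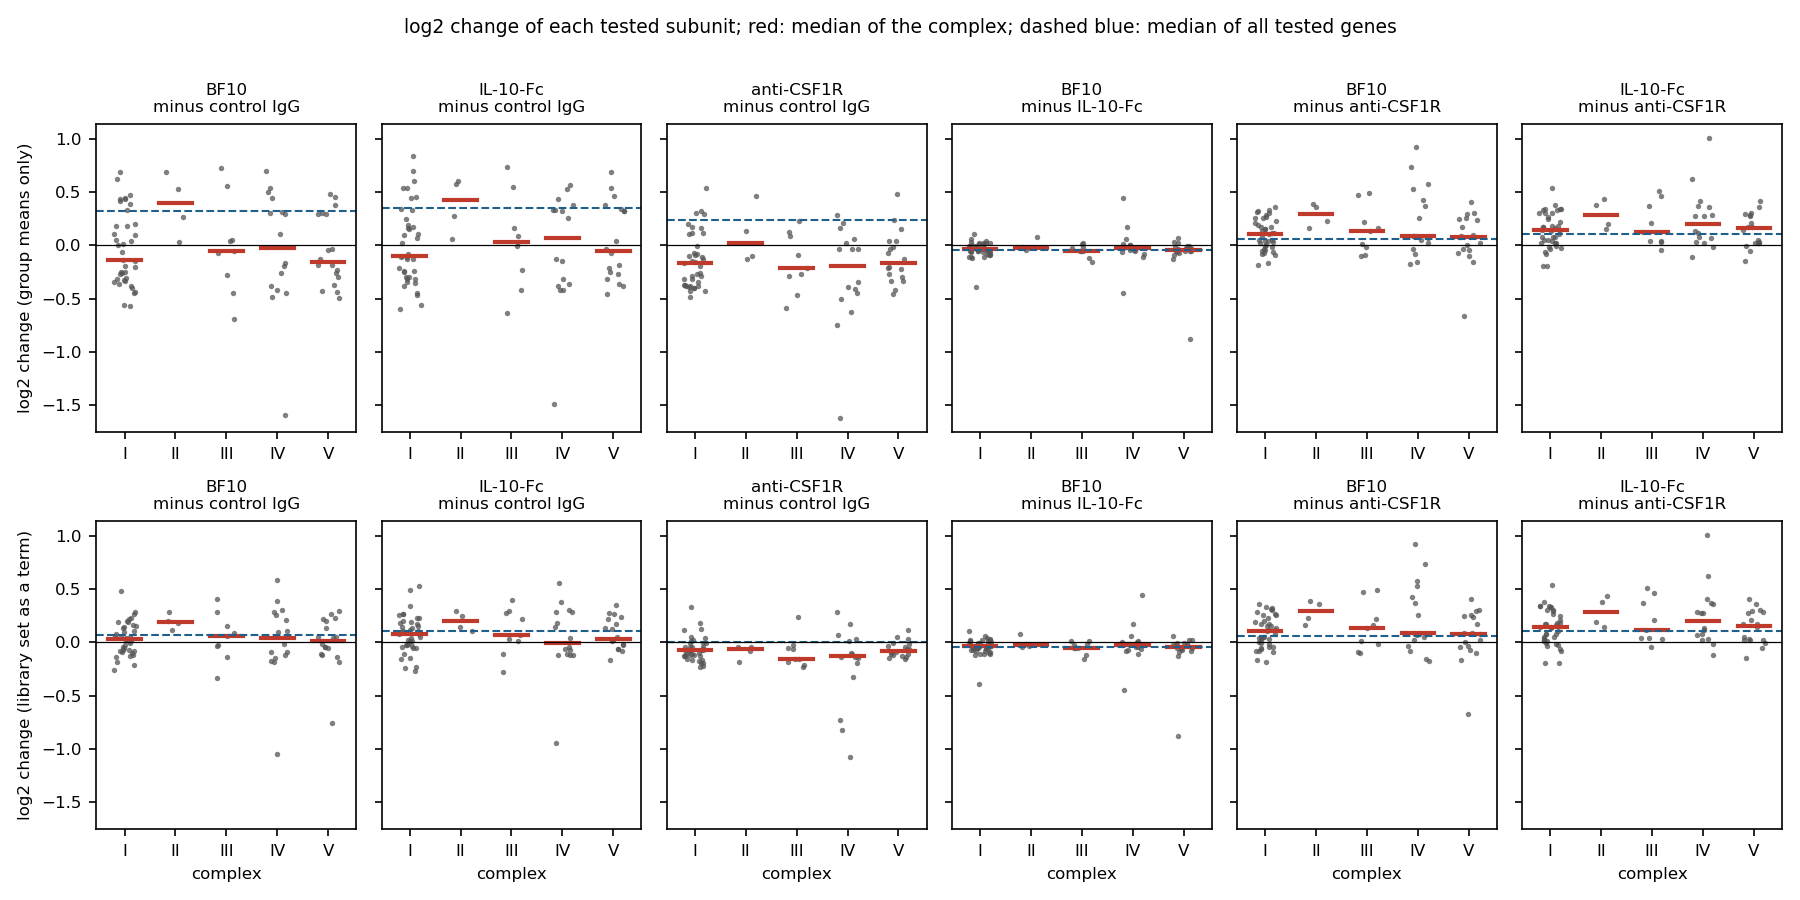
log2 change of each of the 86 tested subunits (points) by complex in the 6 comparisons, with the complex median (red bar), the median of all tested genes (dashed blue line) and 0 (black line); the upper row uses group means only and the lower row adds a term for the library set. The spread of the points in the 3 comparisons with control IgG is narrower in the lower row, while the 3 others, in which each group holds 1 higher-sum library, are the same in both rows.

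With the library set as a term, the median standard error of the subunits was 0.13, against 0.32 without it, and the subunit medians lay near those of all genes. Against control IgG the subunit medians were 0.04 (BF10), 0.08 (IL-10-Fc) and -0.08 (anti-CSF1R), where the medians of all tested genes were 0.07, 0.10 and 0.01. Still 0 of 86 subunits were called, where 0.00645, 0.0258, 2.01, 0, 2.82 and 2.13% of all genes were in the 6 comparisons. At an unadjusted p below 0.05, in the same order, 6, 4, 2, 0, 14 and 17 subunits passed, where 3.75, 3.7, 7.53, 0.909, 11.1 and 9.6% of all genes did. The 14 and 17 were all higher than in anti-CSF1R, 16.3 and 19.8% of the 86, whereas the shares of all genes count both directions. Under median-of-ratios scaling the subunit medians of these comparisons were -0.03 and -0.05. For BF10 against control IgG, the 95% intervals of 60 of 86 subunits lay inside a 1.5-fold change either way and those of 81 inside a 2-fold change, and for anti-CSF1R 75 and 80 did. Without the term the same counts were 15 and 40 in BF10 and 18 and 47 in anti-CSF1R. For Atp5b the interval of the BF10 change was -0.10 to 0.68 with the term, for Sdha -0.29 to 0.65 and for Cyc1 -0.03 to 0.84. In the 7 lower-sum libraries alone, where control IgG is a single library assumed to vary like the others, the subunit medians against control were -0.02, 0.04 and -0.12 in that order (all genes -0.05, -0.07 and 0.02), again with 0 called, where 0.00645, 0.0129, 0.219, 0.00645, 1.0 and 0.439% of all genes were in the 6 comparisons.

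BF10 and IL-10-Fc, which both carry interleukin-10, gave close values: the median log2 difference of the subunits was -0.03 (24 higher, 62 lower in BF10), against -0.05 for all tested genes, and with the median of ratios 0.03 (65 higher, 21 lower), against 0.01. Over 3 against 3 libraries 0 of 86 were higher in all BF10 libraries (0.619% of all genes) and 1 lower (1.51%). Between the lower-sum libraries 7 were higher (12.8% of all genes) and 27 lower (31.4%, against 13.5%), and by the median of ratios 5 and 11 were (13.8 and 12.6%). With the set term, the intervals of 78 of 86 subunits lay inside a 1.5-fold difference. Every complex had a median between -0.05 and -0.02. The smallest p upward was that of Cox6b2, known as the testis form of subunit 6b, at 1.14, 2.22 and 1.34 TPM in control IgG, 1.54, 2.02 and 2.58 in IL-10-Fc, 1.58, 1.8 and 1.09 in anti-CSF1R and 6.52, 1.82 and 2.27 in BF10, in which BF10 3 stood alone. Its difference was 0.01 without BF10 3. Downward it was the second Atp5o row, which was listed at 0 in 5 of the 12 libraries.

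Against anti-CSF1R the median log2 difference of the subunits was 0.10 in BF10 (61 of 86 higher, all-gene median 0.06) and 0.15 in IL-10-Fc (72 of 86 higher, all-gene median 0.11) but -0.03 and -0.05 under median-of-ratios scaling (all-gene medians -0.04 and -0.05). The gap to all genes over the 12 libraries, at most 0.05 under both scalings, changed sign with single libraries. For BF10 it was 0.49 without anti-CSF1R 8, 0.18 without BF10 3 and 0.24 without BF10 7, but -0.19 without anti-CSF1R 4, -0.16 without anti-CSF1R 6 and -0.31 without BF10 6. For IL-10-Fc it was 0.45 without anti-CSF1R 8, 0.17 without IL-10-Fc 2 and 0.11 without IL-10-Fc 4, but -0.15 without anti-CSF1R 4, -0.19 without anti-CSF1R 6 and -0.22 without IL-10-Fc 7. Complex II had the highest of the 5 complex medians, 0.29 in both, and 0.16 and 0.08 under median-of-ratios scaling. In the lower-sum libraries alone it was 0.13 in both, within the range of the other complexes. The lower-sum libraries alone, with 2 per group, gave a wider gap to all genes. Their subunit medians were 0.09 and 0.16 while those of all genes were -0.09 and -0.09. There, 57 of 86 subunits (66.3%) were higher in both lower-sum IL-10-Fc libraries than in both lower-sum anti-CSF1R libraries, and 7 were lower, where 17.2% of all tested genes were higher and 33.7% lower. For BF10 it was 34 of 86 (39.5%) higher and 4 lower, where 15.6% of all genes were higher and 31.9% lower. With the median-of-ratios scaling, also chosen after seeing the data, the same counts were 64 higher and 3 lower in IL-10-Fc (all genes 22.4 and 26.1%) and 56 higher and 3 lower in BF10 (20.7 and 23.5%). This direction held under both scalings in the lower-sum libraries. Over 3 against 3 libraries the groups did not overlap for 13 of 86 subunits in IL-10-Fc (15.1%, against 5.9% of all genes) and 8 of 86 in BF10 (9.3%, against 4.33%), all of them higher than in anti-CSF1R (0 lower, against 1.6 and 1.58%). Scaled by the median of ratios it was 2 of 86 in each (5.93 and 5.5%). Sdhb was 1 of these in both, with a difference of 0.38 in IL-10-Fc (95% interval -0.02 to 0.78, adjusted p = 1), and Atp5a1, the catalytic alpha subunit of ATP synthase, was 1 in IL-10-Fc, with 0.36 (95% interval -0.12 to 0.84). None of these differences was called, and the 2 comparisons share the anti-CSF1R libraries.

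Macrophage RNA moved with the anti-CSF1R group. The 6 macrophage markers (Adgre1, C1qa, C1qb, Cd68, Csf1r and Mrc1) summed to 42.8 to 194 TPM in anti-CSF1R and to 878 to 1279 TPM in the other groups; 4 of 6 were called lower than in control IgG, and 6 of 6 with the set term. T cell markers summed to 8.9 to 27.6 TPM in anti-CSF1R, 13.8 to 28 in control IgG, 19.1 to 35.2 in IL-10-Fc and 12.2 to 37.1 in BF10. The part of these cells in the subunit differences was not tested. BF10 3 stood apart in its neutrophil markers (16038 TPM, against 409.6 to 3273 elsewhere) and fibroblast markers (9057 TPM, against 836 to 5805), and without it the subunit medians in BF10 were -0.03 against control IgG, 0.01 against IL-10-Fc and 0.15 against anti-CSF1R.

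The 2 subunits with the lowest unadjusted p in the anti-CSF1R comparisons were tissue-restricted isoforms of complex IV at low levels. Cox4i2, the isoform of subunit 4 known from lung and from cells of vessel walls such as pericytes, was at 1.97, 3.73 and 3.04 TPM in control IgG, 4, 5.03 and 3.14 in IL-10-Fc, 2.68, 1.72 and 0.542 in anti-CSF1R and 5.44, 2.79 and 3.32 in BF10. All anti-CSF1R libraries lay below all IL-10-Fc and all BF10 libraries and overlapped with control IgG. The difference was 1.00 for IL-10-Fc (SE 0.37, limma adjusted p = 0.927) and 0.92 for BF10 (SE 0.37, adjusted p = 0.908). With the set term the limma adjusted p was 0.0622 and 0.0776, which still misses the threshold. With the FPKM sum of all other genes as a covariate in place of the set, Cox4i2 was the only subunit called, in IL-10-Fc (0.96, limma adjusted p = 0.0455) and in BF10 (0.91, limma adjusted p = 0.0416) against anti-CSF1R. In that fit 0.0129, 0.00645, 2.53, 0, 3.34 and 2.22% of all genes were called in the 6 comparisons. Over all alternatives its limma adjusted p ranged from 0.00185 to 1 in IL-10-Fc and from 0.0416 to 1 in BF10. Without anti-CSF1R 8 the differences were 0.66 and 0.58. Cox7a1, the heart and skeletal muscle isoform of subunit 7a, was at 5.76, 4 and 3.92 TPM in control IgG, 3.46, 4.47 and 4.28 in IL-10-Fc, 3.01, 2.12 and 1.83 in anti-CSF1R and 3.75, 4.51 and 3.48 in BF10. All anti-CSF1R libraries lay below all others, with a change against control IgG of -0.75 (SE 0.26, limma adjusted p = 0.754, range 0.0115 to 1 over the alternatives).

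Markers of cells that these isoforms are known from were summed beside them. The 7 pericyte markers summed to 11.3 to 91 TPM in anti-CSF1R, 25.9 to 63.4 in control IgG, 43.3 to 90.1 in IL-10-Fc and 28.3 to 122 in BF10, and the 6 skeletal muscle markers to 24.7 to 67.6, 26.2 to 82.3, 60.6 to 96.7 and 39 to 82.5 TPM. The groups overlapped for both lists, and anti-CSF1R 8 was the lowest library in each. Their part in the Cox4i2 and Cox7a1 values was not tested.

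**Figure D5:**
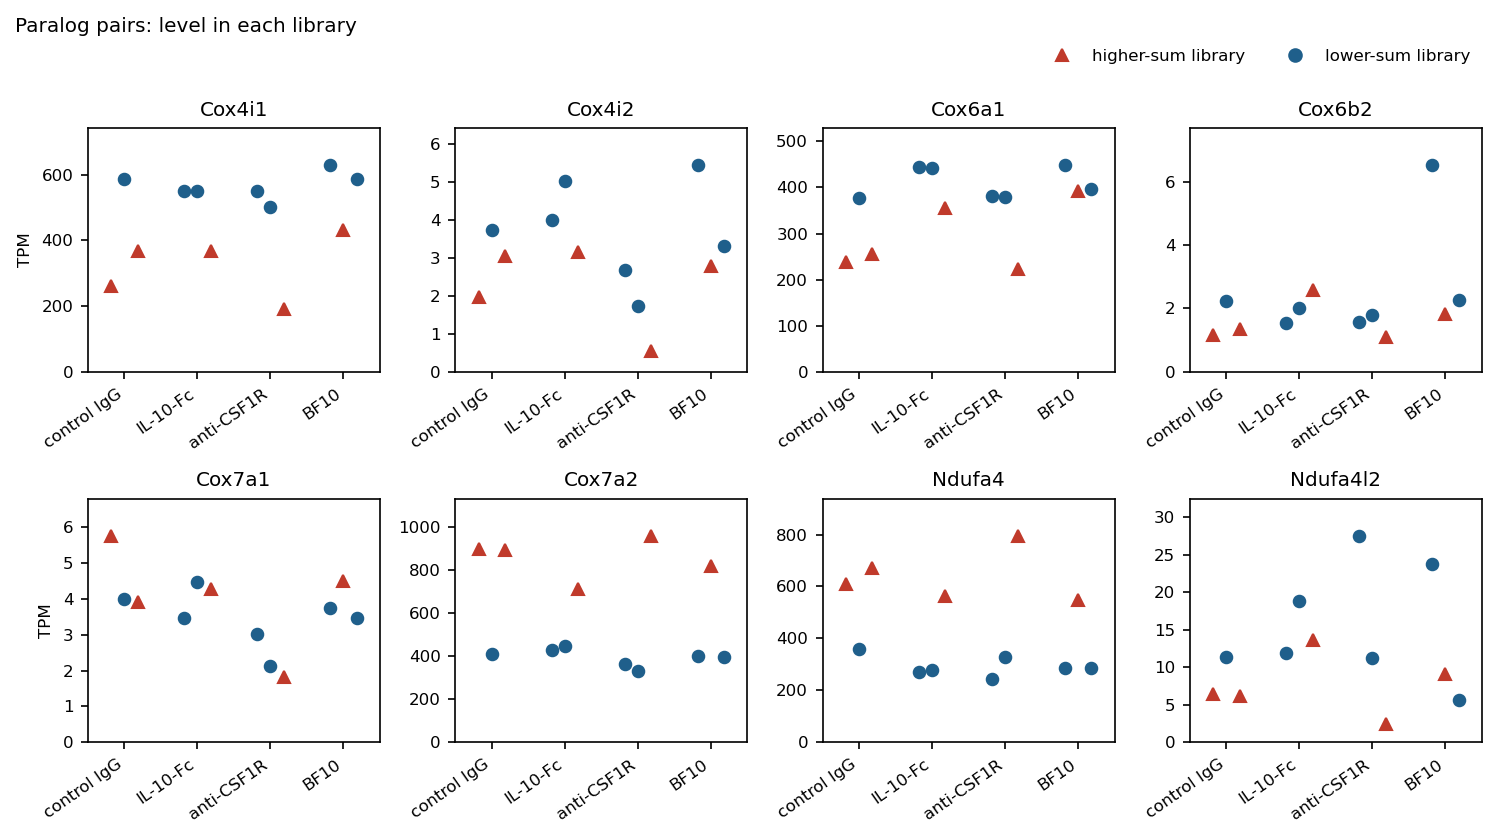
Level of 8 paralogous subunits in each library by group, in TPM on axes that start at 0 and differ between panels; triangles are higher-sum and circles lower-sum libraries. Cox4i1 and Cox7a2 split by library set in opposite directions, and Cox4i2 and Cox7a1, at under 6 TPM, are lowest in anti-CSF1R 8.

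In the pairs with a tissue-restricted form, the common form carried nearly all of the RNA. Cox4i1 averaged 464 TPM against 3.12 for Cox4i2, Cox6a1 361 against 0.722 for the muscle form Cox6a2, Cox6b1 479 against 2.16 for Cox6b2, Cox8a 677 against 1.23 for Cox8b, and Cox7a2 589 and the related Cox7a2l 322 against 3.72 for Cox7a1. Atp5g1, Atp5g2 and Atp5g3, which encode the same c subunit of the ATP synthase ring, averaged 188, 272 and 352 TPM, and by library set Atp5g2 was higher (0.71) while Atp5g3 was lower (-0.47) in the higher-sum libraries. Ndufa4l2, a hypoxia-induced relative of Ndufa4, was at 6.38, 11.4 and 6.19 TPM in control IgG, 11.9, 18.8 and 13.6 in IL-10-Fc, 27.6, 11.2 and 2.5 in anti-CSF1R and 23.8, 9.13 and 5.64 in BF10. It ranged from 2.5 to 27.6 TPM within anti-CSF1R, and 12 hypoxia-response genes summed to 2086 to 4213 TPM there, with anti-CSF1R 4 the highest and anti-CSF1R 8 the lowest library of that group in both. IL-10-Fc 4 was likewise the highest of its group in both (sum 3246 TPM). The other groups differed: BF10 7 had the highest sum of its group (3048 TPM) and the lowest Ndufa4l2. In control IgG the sum was highest in control IgG 4 (2650 TPM) and Ndufa4l2 in control IgG 5 (sum 2438 TPM). The Ndufa4l2 change in anti-CSF1R against control IgG was 0.30 with an interval of -1.25 to 1.84, and -0.01 with the set term.

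The most abundant subunits of complexes I and IV, whose promoters had no entry, were Ndufb9 and Cox6c. Ndufb9, an accessory subunit, was at 424, 493 and 407 TPM in control IgG, 450.1, 467 and 504 in IL-10-Fc, 485, 504 and 446 in anti-CSF1R and 413, 501 and 460.0 in BF10. Cox6c was at 1190, 642 and 1199 TPM in control IgG, 577, 616 and 1077 in IL-10-Fc, 566, 591 and 1173 in anti-CSF1R and 566, 1036 and 568 in BF10. Their differences between higher-sum and lower-sum libraries were -0.04 and 0.94 in log2 level. Of the core subunits of complex I, Ndufv1, which binds the flavin that takes electrons from NADH, differed by -0.60 between the sets, and Ndufs1, with iron-sulfur clusters, by 0.01. Uqcrfs1, the Rieske iron-sulfur protein of complex III, differed by 0.11. Against control IgG, the changes of Ndufv1, Ndufs1 and Uqcrfs1 in BF10 were 0.39, 0.10 and 0.05 (SE 0.33, 0.19 and 0.17), and with the set term 0.20, 0.11 and 0.09. Cox7a2l had the smallest p downward in IL-10-Fc against anti-CSF1R, with -0.11 (SE 0.21), which was 0.023 without anti-CSF1R 8.

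Related gene lists gave the same count of calls. None of the 13 mitochondrially encoded subunits, 49 tested assembly factors, 11 tested regulators of mitochondrial biogenesis, 18 genes of the TCA cycle and pyruvate dehydrogenase, 12 hypoxia-response genes and 78 mitochondrial ribosomal proteins was called in any of the 6 comparisons, with or without the set term. Of all tested genes 0 to 0.735% were called without the term and 0 to 2.82% with it, so few calls could come from lists of this length. The mitochondrially encoded subunits summed to 53923 to 84199 TPM in the higher-sum and 29592 to 37374 TPM in the lower-sum libraries, with no overlap. Against control IgG, on the TPM scale, the means of these subunits were lower for 13 of 13 in BF10 (median -0.50), 12 of 13 in IL-10-Fc (-0.45) and 12 of 13 in anti-CSF1R (-0.47). With the set term 10, 9 and 7 of 13 were lower, with medians of -0.18, -0.12 and -0.21. The TCA cycle list split the opposite way (948 to 1498 against 1821 to 2014 TPM), as did the regulators of mitochondrial biogenesis (173 to 242 against 292 to 377 TPM). Assembly factors (1466 to 1680 TPM over all libraries) and mitochondrial ribosomal proteins (4811 to 5590 TPM) overlapped between the sets. In IL-10-Fc against anti-CSF1R, with the set term, the list medians were 0.06 for assembly factors, 0.22 for the TCA cycle, 0.09 for regulators, 0.14 for mitochondrial ribosomal proteins, -0.02 for the mitochondrially encoded subunits and 0.06 for hypoxia-response genes, beside 0.15 for the subunits and 0.11 for all tested genes.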

How the data were processed

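The authors extracted tumor RNA with TRIzol, made TruSeq Stranded mRNA libraries and sequenced 75 bp reads on a NextSeq 550, with mm10 and the annotation GRCm38.101 as reference; the submitters' processing notes name STAR 2.7.5a, RSEM 1.3.3 and DESeq2 1.28.0 with no role. The authors deposited FPKM values (no counts) for 55401 genes in 12 libraries, each matched to its sample by name, with 0 columns unmatched. A further 4 deposited tables hold the authors' own comparisons (fold changes and p-values) and were not used. Absolute depth is unknown. Relative depths came out at 0.923 to 1.06 from low values kept only where close to each gene's lowest nonzero value. That choice confines the estimate to a narrow range, so it cannot show whether depth differed between libraries.

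FPKM was rescaled to TPM and tested as log2(TPM + 1) with limma 3.58.1 (R 4.3.3; empirical Bayes with a trend, 1 mean per group) over the 15504 genes at 1 TPM or more in at least 3 libraries; a fold change on this scale understates that of low genes. The fit was run on simulated data with noise of the size left once the library set is held, and with no set difference. That check therefore does not cover the set difference present in these libraries. Transcript lengths and GC content are from GENCODE M21. The subunits, lists, tests and library sets were chosen with earlier results of these data known. Subunits were named by rule: per complex the highest mean, per comparison the smallest p in each direction, every called one, paralog pairs, and 9 catalytic or electron-carrying subunits, of which 1 is not reported here. Alternatives were another pseudocount, scaling or filter, leaving out each library, the replicate number as a block, a library set term, the lower-sum libraries alone, an FPKM-sum covariate, sample weights and no fold limit.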

Additional observations from a re-analysis of the deposited data

How the results depend on the processing

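The count of subunits called stayed at 0 in all 6 comparisons under another pseudocount, both other scalings, no filter on low values, the replicate block, the library set term, no fold limit, and without each library in turn (0 to 0 in each comparison). Few genes of any kind were called: 0 to 0.735% of all tested genes with group means only and 0 to 2.82% with the set term. These counts of 0 therefore do not set the subunits apart from other genes. With the FPKM sum of the other genes as a covariate the count of subunits called was 1 for BF10 and 1 for IL-10-Fc against anti-CSF1R, both times Cox4i2 (log2 differences 0.91 and 0.96, adjusted p = 0.0416 and 0.0455 in limma). Over all alternatives the limma adjusted p of Cox4i2 ranged from 0.0416 to 1 in BF10 and from 0.00185 to 1 in IL-10-Fc. With sample weights the counts against control IgG were 50 (BF10), 46 (IL-10-Fc) and 51 (anti-CSF1R), and 1 for IL-10-Fc against anti-CSF1R, where 57.8, 59.8, 63.8 and 12.7% of all tested genes were called; these weights were 1.31 and 1.65 for the higher-sum control libraries and 0.112 for the lower-sum one, but 0.33, 0.0736 and 0.187 for the higher-sum library of the other groups, and 61.7 for IL-10-Fc 4, so that fit weighed mainly higher-sum control libraries against lower-sum treated ones. The estimate of the weights stopped before it converged.

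The subunit medians against control IgG (-0.06, 0.01 and -0.15 in the order BF10, IL-10-Fc, anti-CSF1R) were -0.24, -0.20 and -0.34 on FPKM as deposited and -0.42, -0.43 and -0.39 with median-of-ratios scaling, which also gave -0.025 for BF10 and -0.052 for IL-10-Fc against anti-CSF1R. With sample weights they were -0.23, -0.16 and -0.27. With the FPKM-sum covariate the BF10 median was 0.054. Leaving out 1 library gave medians of -0.17 (without BF10 6) to 0.01, -0.10 to 0.05, and -0.28 (without anti-CSF1R 8) to -0.13 in the same order. BF10 against IL-10-Fc ranged from -0.17 (without BF10 6) to 0.075 (without IL-10-Fc 7). Against anti-CSF1R the medians ranged from -0.042 (without BF10 6) to 0.23 (without anti-CSF1R 8) for BF10 and from 0.04 to 0.24 for IL-10-Fc. The Ndufa4l2 change in anti-CSF1R against control IgG turned to -0.0088 with the set term, -0.14 with the covariate and -0.41 without anti-CSF1R 4, and its range without 1 library was -0.41 to 1.10. The Sdhb change in BF10 turned to -0.11 with median-of-ratios scaling, and Cox7a2l in IL-10-Fc against anti-CSF1R was -0.22 to 0.023 without 1 library. The cause of these changes was not tested.

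The titles share some replicate numbers between groups. Of 7 pairs of libraries with a shared number, 2 had a correlation of deviations from their group means above 0.1 (range -0.66 to 0.42). These were control IgG 7 with IL-10-Fc 7 and IL-10-Fc 4 with anti-CSF1R 4, each pair from the same library set. The deviations also carry the library set, so this check cannot tell whether a shared number means anything more. With the replicate block 0 subunits were called in any comparison, but so few residual degrees of freedom were left that calls could hardly come out. The block also absorbs each library whose number occurs only once: control IgG 5, IL-10-Fc 2, anti-CSF1R 8 and BF10 3. The anti-CSF1R change against control IgG then drew on no lower-sum control and no higher-sum anti-CSF1R library. The subunit medians moved to -0.42 in anti-CSF1R against control IgG, -0.16 between BF10 and IL-10-Fc, and 0.22 for BF10 and 0.44 for IL-10-Fc against anti-CSF1R. The medians of all tested genes were 0.93, 0.08, -0.34 and -0.40 in the same order. With the block Cox6b2 in BF10 against IL-10-Fc turned to -0.15, Cox7a2l in IL-10-Fc against anti-CSF1R to 0.073 and Cox4i2 in anti-CSF1R against control IgG to 0.0043.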
